A study of Mus musculus with 18 samples.

Results

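The transcriptome of lenses from 2-day-old mice homozygous for the *Cryaa*-R49C knock-in was compared with that of lenses from age-matched wild-type (WT) mice. The members are the 3 homozygous (homo) and 3 WT libraries of this line, 6 of the 18 libraries of the series, and the 13938 genes of 40800 in the count table that passed an expression filter. The homo mice carry 2 copies of a *Cryaa* allele in which arginine 49 of αA-crystallin is replaced by cysteine, the heterozygous (het) mice carry 1 copy, and the WT mice carry none. All mice are on the C57BL/6J strain, all 9 libraries of this line are from day 2, and no group received a treatment. The knock-in is in every cell of the animal. Whole lenses of several animals were pooled for each library, so the p-values measure the spread between pools, and a lower share of 1 cell type cannot be told apart from less RNA per cell. The number of cells of each kind in a pool was not measured. The other 9 libraries are from day 14 and are labelled as WT, het and homo of a *Cryab*-R120G line. They entered the model to estimate the spread and were not compared here.

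The αA-crystallin protein is a small heat shock protein of the lens that keeps other proteins in solution, and it works as a complex with αB-crystallin. Lens epithelial cells at the equator elongate into fibre cells, which fill with crystallins, build membrane channels and a beaded filament cytoskeleton, and then lose their nuclei and organelles. When cells sense misfolded protein, amino acid shortage or other stress, kinases phosphorylate the translation factor eIF2α. General protein synthesis then slows while the messenger RNA of *Atf4* is translated, and ATF4 with its partners switches on genes for amino acid supply and, through CHOP, genes linked to cell death.

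The filtered genes were tested with edgeR's quasi-likelihood test, and a gene was called where the Benjamini-Hochberg false discovery rate (FDR) was at most 0.05. The words called, rose and fell refer to this test with all 18 libraries unless another fit is named. In homo lenses 679 genes were higher and 685 lower than in WT, together 9.79% of the genes tested, with 4.87% higher and 4.91% lower. Over all genes tested, the log2 fold change had a median of 0.005. Of the genes called, 1284 had all 3 homo libraries on 1 side of the 3 WT libraries. Among all genes tested 24.5% had libraries apart in this way, 11.9% above and 12.6% below. Changes of over 2 on the log2 scale, which is a fold of more than 4, were called for 99 higher and 164 lower genes. Levels are given as CPM, counts scaled to the same library total, after TMM scaling, a method that sets the libraries to the same level for most genes. They compare libraries for 1 gene, not genes with each other, since they are not divided by length.

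The libraries held 14272174 to 24639638 counts in WT and 15362115 to 20061547 counts in homo. A few genes took most of these counts. The 16 crystallin genes held 47.4%, 46.3% and 48.99% of the counts in WT 1 to 3, and 61.2%, 37.7% and 23.9% in homo 1 to 3. Gm42418, a non-coding locus on chr17:39846958-39848788 known to overlap ribosomal RNA sequence, held 27.8%, 30.1% and 20.01% in WT and 2.53%, 24.5% and 42.6% in homo. The homo values lie on both sides of the WT values for both measures. The mean difference was -6.65 percentage points for the crystallins (two-sided exact permutation p = 0.7, n = 3 against 3) and -2.78 for Gm42418 (exact permutation p = 0.8), where the smallest p this design allows is 0.1. The share of all other genes was 24.8%, 23.6% and 31.0% in WT and 36.3%, 37.8% and 33.6% in homo, higher in each homo library than in any WT library (exact permutation p = 0.1). Homo 1 also stood apart from homo 2 and 3 across genes. The median absolute log2 difference between libraries was 0.416 and 0.422 for homo 1 against homo 2 and 3, 0.207 between homo 2 and 3, and 0.150 to 0.230 within WT. Without homo 1, 1323 genes (9.19%) were higher and 1769 (12.3%) lower, 21.5% of 14398 genes, and counts without homo 1 stand beside many of the lists below. The pools also differed in sex: *Xist*, which is expressed from the inactive X chromosome of females, had 138, 50.0 and 22.5 CPM in WT and 0.374, 0.126 and 56.8 CPM in homo. None of the 5 X inactivation and Y genes was called with this test or with DESeq2, and 0 of them had an unadjusted p under 0.05. *Xist* was called lower without homo 3 (log2 fold change -8.02), with the likelihood-ratio test and with all genes that had a count.

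**Figure D1:**
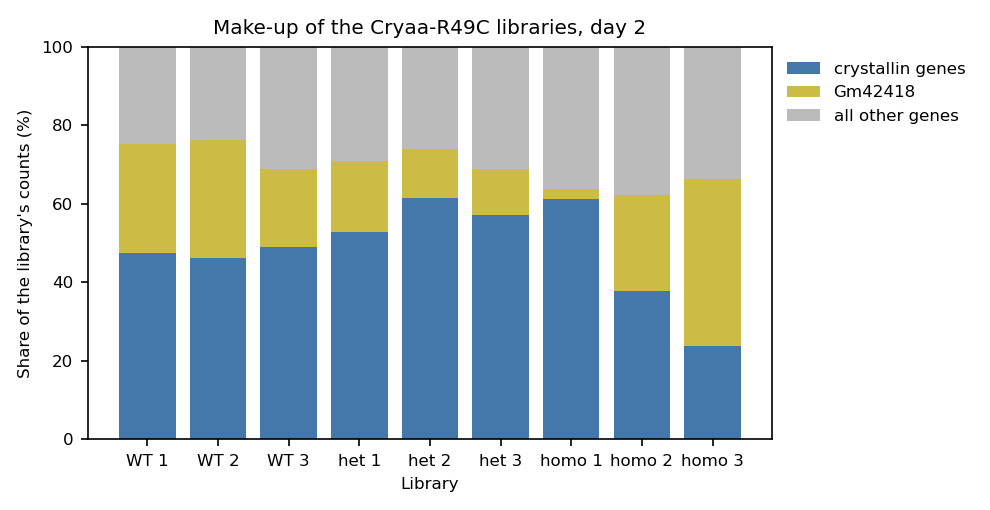
Share of each library's counts (vertical axis, percent) held by the 16 crystallin genes, by Gm42418 and by all other genes in the 9 libraries of the *Cryaa*-R49C line at day 2 (1 bar per library). The crystallin share is 46.3% to 48.99% in the WT bars and 23.9% to 61.2% in the homo bars, and Gm42418 holds 2.53% of homo 1 and 42.6% of homo 3.

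*Cryaa* itself, on chr17:31677807-31681733 (GRCm38), was counted at 101300, 103300 and 69970 CPM in WT and at 92960, 38260 and 31390 CPM in homo. The groups overlapped through homo 1, and the log2 fold change of -0.76 ± 0.33 (SE) did not pass the test (FDR 0.150). Counts per gene cannot show the point mutation, so these values check the expression of the locus and not the genotype. *Cryab*, for the partner αB-crystallin, had 8030, 8700 and 5240 CPM in WT and 5675, 6369 and 5448 CPM in homo (log2 fold change -0.33 ± 0.26, FDR 0.489), and its groups overlapped as well.

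Of the 16 crystallins, 4 fell (25.0%, against 4.91% of all genes), none rose and 12 did not pass, with a median log2 fold change of -0.71. None was higher at an unadjusted p under 0.05 either. *Crygb*, 1 of the γ-crystallins of the fibre cell, had 34270, 36300 and 22460 CPM in WT and 11130, 12950 and 7327 CPM in homo (log2 fold change -1.57 ± 0.28, FDR 0.000767), so every homo pool lay below every WT pool. *Crygc* also fell with the libraries apart (-0.95 ± 0.27, FDR 0.0266). *Crygs* (-0.94 ± 0.29, FDR 0.0431) and the β-crystallin gene *Crybb1* (-0.86 ± 0.27, FDR 0.0429) fell while their libraries overlapped. Homo 1 divides the family. In that library the α-crystallins took 36.5% and the γ-crystallins 13.1% of the crystallin counts, against 23.8% and 33.8% in homo 2, 26.4% and 30.1% in homo 3, and 29.1% to 30.7% and 23.5% to 26.2% in WT. *Cryba1*, a β-crystallin, had 64960 CPM in homo 1 and 31370 and 17230 CPM in homo 2 and 3, against 56240 to 82160 CPM in WT, and did not pass (FDR 0.104). *Crygd* went the other way, with 3042 CPM in homo 1 and 10310 and 6731 CPM in homo 2 and 3, against 4152 to 8008 CPM in WT (FDR 0.939). The neighbouring γ-crystallin genes, *Cryge* and *Crygf* above all, are near-identical copies, so the split of reads between them is uncertain. Without homo 1, 8 crystallins were lower, *Cryaa* among them (FDR 0.000718). The count was 7 without WT 3 and 1 without WT 1, without WT 2 or without homo 3, and 1 with scaling by library size alone with the 9 libraries of the line or with every gene that had a count. With the replicate number as a block 8 were lower. In a fit of the 6 libraries alone no crystallin was called, DESeq2 called 7 lower and the likelihood-ratio test 9.

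Large rises were measured in the arm of the stress response that runs through ATF4 and CHOP. Of the 18 genes of stress signalling, 6 rose, 1 fell and 11 did not pass, against 4.87% higher and 4.91% lower among all genes. *Atf4*, the transcription factor at the head of this arm, had 28.2, 30.0 and 22.6 CPM in WT and 84.9, 95.1 and 92.6 CPM in homo (log2 fold change 1.76 ± 0.21, FDR 6.12e-06). The homo pools were close to each other and 3.38-fold above WT in the fit. *Ddit3*, which encodes CHOP, had 3.32, 3.92 and 3.47 CPM in WT and 166, 109 and 110 CPM in homo (5.17 ± 0.31, FDR 1.99e-10). *Atf5*, a related factor, had 4.52, 5.88 and 2.52 CPM in WT and 11.8, 78.2 and 70.8 CPM in homo (3.64 ± 0.52, FDR 0.000241), with homo 1 above WT but far below the other 2 homo pools. *Nupr1*, a small chromatin protein induced by stress, had 1230, 1174 and 780 CPM in WT and 3569, 4784 and 5069 CPM in homo (2.08 ± 0.25, FDR 5.75e-06). *Cebpg*, a dimer partner of ATF4, rose by 1.37 ± 0.32 (FDR 0.00746). *Trib3*, a pseudokinase induced by CHOP, had 0, 3 and 4 counts in WT and 3904, 1349 and 851 counts in homo (9.21 ± 0.66, FDR 3.17e-08). The homo pools were apart from WT for all 6 genes.

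The kinases that feed this arm were not among the genes that rose, though counts of RNA do not measure the activity of a kinase. *Eif2ak1*, a further kinase of this kind, did not pass (log2 fold change -0.17, FDR 0.696). *Eif2ak3* (PERK, the kinase of the endoplasmic reticulum) had 0.507 to 1.24 CPM in WT and 0.573 to 0.951 CPM in homo (log2 fold change 0.06 ± 0.48, FDR 0.960). *Eif2ak4* (GCN2, the amino acid sensor) had 2.94 to 3.88 CPM in WT and 2.69 to 4.49 CPM in homo (0.21 ± 0.27, FDR 0.688). *Eif2ak2* (PKR, which senses double-stranded RNA) was the 1 member that fell, with 4.05, 2.77 and 3.01 CPM in WT and 1.92, 1.73 and 0.913 CPM in homo (-1.09 ± 0.32, FDR 0.0340). The call of *Eif2ak2* was lost without any 1 of the other 5 libraries than homo 1. *Ppp1r15a*, the phosphatase subunit that ends the response, stood at 9.71 to 14.4 CPM in WT and 6.32 to 18.7 CPM in homo (FDR 0.902). *Atf3*, a further factor of the arm, lay at 0.0338 to 0.426 CPM in WT and at 12.7, 7.04 and 6.20 CPM in homo without overlap, and its log2 fold change of 5.50 ± 1.93 did not pass (FDR 0.0988).

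Of 20 genes known as targets of ATF4 or CHOP, 19 passed the filter, and 10 of these rose (52.6%, against 4.87% of all genes), 2 fell (10.5%, against 4.91%) and 7 did not pass, with a median log2 fold change of 1.57 against 0.005 for all genes. With 1 library left out at a time 9 to 11 were higher and 0 (without WT 3) to 3 (without homo 1) lower. *Chac1*, an enzyme that degrades glutathione, had 5, 8 and 5 counts in WT and 6045, 1720 and 1194 counts in homo (8.43 ± 0.86, FDR 1.98e-05). *Sesn2*, an inhibitor of mTORC1 signalling, had 1.36, 2.16 and 1.86 CPM in WT and 18.7, 16.4 and 14.2 CPM in homo (3.18 ± 0.33, FDR 1.03e-06). *Eif4ebp1*, which represses cap-dependent translation, had 13.5, 12.8 and 10.4 CPM in WT and 146, 70.4 and 72.0 CPM in homo (2.98 ± 0.29, FDR 2.99e-07). The homo pools were above WT for each of the 3 genes. Of the 3 filtered members listed as secreted factors, 2 rose. *Gdf15*, a stress hormone, had 0.213 to 0.338 CPM in WT and 9.45, 8.55 and 10.7 CPM in homo (5.01 ± 0.94, FDR 0.00333). *Adm2*, a peptide hormone, had no count in any WT library and 31, 16 and 14 counts in homo (FDR 0.00349), at least 5.14-fold higher with a floor of 3 counts per WT library. *Stc2*, a secreted glycoprotein, rose by 3.38 ± 0.59 (FDR 0.000561). *Sqstm1*, the autophagy adaptor p62, had 19.1 to 27.3 CPM in WT and 87.0, 156 and 158 CPM in homo (2.48 ± 0.29, FDR 3.70e-06). The 2 members that fell were *Fam129a* (-1.62 ± 0.38, FDR 0.00830) and *Ndrg1* (-0.67 ± 0.22, FDR 0.0495), and *Slc7a11*, the cystine transporter, had 7.18 to 11.7 CPM in WT and 6.502 to 10.2 CPM in homo (FDR 0.537).

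**Figure D2:**
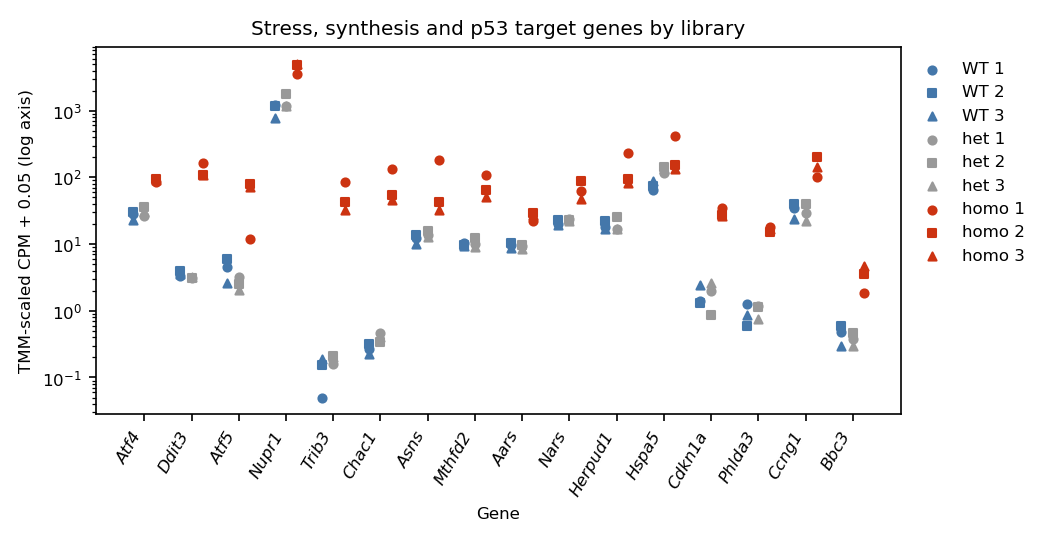
Levels of 16 stress, synthesis and p53 target genes (horizontal axis) in TMM-scaled CPM plus 0.05 (log axis) in each WT, het and homo library, with 1 point per library and the marker shape giving the replicate number. The homo points lie above the WT points for all genes drawn, and *Atf5* has 11.8 CPM in homo 1, and the het points lie beside the WT points for *Ddit3* (3.00 to 3.19 CPM).

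Genes that make amino acids and one-carbon units rose in part. Of 27 such genes, 9 rose (33.3%, against 4.87% of all genes), 1 fell (3.70%, against 4.91%) and 17 did not pass, with a median log2 fold change of 0.26. The median was 0.05 without homo 1, 0.15 without WT 2, 0.39 without homo 2 and 0.41 without homo 3, and 7 to 9 genes were higher and 1 or 2 lower with 1 library left out at a time. *Asns*, asparagine synthetase, had 12.5, 13.5 and 9.95 CPM in WT and 184, 42.2 and 32.2 CPM in homo (2.85 ± 0.47, FDR 0.000698), and homo 1 was far above the other homo pools. *Mthfd2*, the mitochondrial folate enzyme, had 10.2, 9.69 and 9.39 CPM in WT and 107, 65.2 and 51.0 CPM in homo (2.93 ± 0.26, FDR 7.29e-08). *Cth*, which makes cysteine, had 0.213 to 0.666 CPM in WT and 3.19 to 5.07 CPM in homo (3.34 ± 0.52, FDR 0.000172). The other members that rose were *Aldh1l2* (2.21), *Gpt2* (1.57), *Aldh18a1* (1.39), *Mthfd1l* (1.39), *Psat1* (1.18) and *Mthfd1* (1.07), as log2 fold changes, and all 9 had their libraries apart. In the serine pathway only *Psat1* passed: *Phgdh*, its first enzyme, had 4.66 to 7.46 CPM in WT, 16.8 CPM in homo 1 and 6.44 and 6.46 CPM in homo 2 and 3 (FDR 0.244). In the proline pathway the ends moved apart, since *Aldh18a1*, the first step, rose while *Pycr1*, a last step, had 2.63 to 3.99 CPM in WT and 0.646 to 1.59 CPM in homo and fell by 1.69 ± 0.32 (FDR 0.00111).

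Of 26 filtered amino acid transporters, 3 rose (11.5%, against 4.87% of all genes) and none fell (against 4.91%), with a median of -0.07, and 3 were lower at an unadjusted p under 0.05. Without homo 1 there were 3 higher and 2 lower, DESeq2 gave 4 higher and 1 lower, and the median ran from -0.17 without homo 3 to -0.01 without WT 3. Those that rose were *Slc7a3* (3.64 ± 0.69, FDR 0.00124) and *Slc7a1* (1.45 ± 0.26, FDR 0.000633), carriers of arginine and lysine, and *Slc1a4* (1.38 ± 0.27, FDR 0.00189), a carrier of serine and alanine. *Slc3a2*, the heavy chain shared by several carriers, had 68.9 to 103 CPM in WT and 105 to 170 CPM in homo, apart by a narrow margin, and did not pass (FDR 0.0548).

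Aminoacyl-tRNA synthetases load amino acids onto transfer RNA, and the cell has a cytosolic and a mitochondrial set. Of the 20 cytosolic aminoacyl-tRNA synthetases, 11 rose (55.0%, against 4.87% of all genes) and none fell, with a median log2 fold change of 0.85, and the libraries were apart for all 11. None was lower at an unadjusted p under 0.05 or with DESeq2, 1 was lower without homo 1, and 8 to 11 were higher with 1 library left out at a time. Of the 17 mitochondrial enzymes none was called in either direction with edgeR's quasi-likelihood test or with DESeq2, 3 were higher at an unadjusted p under 0.05, and their median was 0.32. Without homo 1, 2 mitochondrial enzymes were lower, the likelihood-ratio test called 1 lower, and library size alone called 1 higher. *Iars*, for isoleucine, had 11.0, 12.5 and 9.18 CPM in WT and 28.6, 47.3 and 34.2 CPM in homo (1.75 ± 0.21, FDR 7.68e-06). *Nars*, for asparagine, had 20.3, 22.8 and 19.4 CPM in WT and 62.5, 89.0 and 46.9 CPM in homo (1.67 ± 0.23, FDR 3.89e-05). *Tars* (1.77), *Eprs* (1.52), *Aars* (1.45), *Gars* (1.24), *Yars* (1.13), *Sars* (1.12), *Rars* (0.95), *Cars* (0.88) and *Mars* (0.82) also rose. *Qars*, *Lars*, *Kars*, *Hars*, *Farsa*, *Farsb*, *Vars*, *Dars* and *Wars* did not pass, with log2 fold changes of 0.03 to 0.78. A difference between both sets of enzymes was not tested. In a fit of the 6 libraries alone, 5 cytosolic enzymes were higher. *Lars2*, the mitochondrial leucine enzyme, is a case of its own: it had 17320, 18310 and 8955 CPM in WT and 3039, 16240 and 34730 CPM in homo, and among the 6 libraries it was lowest in homo 1, as was Gm42418 with 11190 CPM.

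Promoters of these genes were searched for TGATGNAA, the core shared by C/EBP-ATF response elements that ATF4 dimers are known to bind, on both strands. The promoters came from RefSeq (GRCm38.p6), from 250 bases before to 50 bases after each gene's start. The core was found for 4.51% of 27025 genes in that table and for 2.62% of the 10738 genes that passed the expression filter and had a promoter in it. It was found for 4 of 16 stress signalling genes (25.0%), 4 of 16 ATF4 or CHOP targets (25.0%), 5 of 13 cytosolic synthetases (38.5%), 3 of 21 synthesis enzymes (14.3%) and 3 of 21 transporters (14.3%). It was found for 0 of 15 mitochondrial synthetases, 1 of 30 genes of endoplasmic reticulum folding (3.33%) and 1 of 26 p53 targets (3.85%). Over all genes the share was 4.69% of those called higher, 2.39% of those called lower and 2.52% of those not called. For the stricter TGATGCAA the share was 30.8% of the cytosolic synthetases and 0.689% of the filtered genes. Below are the matches in members that were called, with 20 bases on each side, written 5′ to 3′ on the strand of the gene and with the match in capitals. They were picked by these calls, and all but *Pycr1*, which fell, were higher in homo. Listed genes that were not called also held the core. These were *Slc7a11* (log2 fold change -0.32), *Got1* (-0.39), *Jdp2* (-0.72), *Slc7a7* (0.11), *Vldlr* (0.66), *Polk* (0.88) and *Atf3* (5.5). *Fgf21*, which was below the filter, held the core too. Whether a match goes with a rise was not tested.

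Chac1: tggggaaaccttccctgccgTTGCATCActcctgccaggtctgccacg
Trib3: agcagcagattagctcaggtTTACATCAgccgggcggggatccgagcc
Nupr1: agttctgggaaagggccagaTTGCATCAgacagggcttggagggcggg
Herpud1: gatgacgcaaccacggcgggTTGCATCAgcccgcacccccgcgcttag
Asns: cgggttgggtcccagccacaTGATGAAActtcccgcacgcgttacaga
Slc1a4: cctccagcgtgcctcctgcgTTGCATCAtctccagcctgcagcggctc
Aars: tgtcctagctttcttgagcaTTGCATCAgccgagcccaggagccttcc
Gars: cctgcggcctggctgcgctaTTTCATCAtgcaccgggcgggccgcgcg
Iars: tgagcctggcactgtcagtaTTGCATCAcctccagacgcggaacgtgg
Tars: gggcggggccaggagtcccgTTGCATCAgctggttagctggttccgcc
Yars: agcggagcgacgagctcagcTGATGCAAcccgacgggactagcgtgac
Pycr1: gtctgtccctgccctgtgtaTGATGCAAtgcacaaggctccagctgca

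The windows lie at chr2:119351029-119351076 on the plus strand for *Chac1*, chr2:152344019-152344066 on the minus strand for *Trib3*, chr7:126625553-126625600 (minus) for *Nupr1*, chr8:94386297-94386344 (plus) for *Herpud1*, chr6:7693205-7693252 (minus) for *Asns* and chr11:20332690-20332737 (minus) for *Slc1a4*. Those of the synthetases lie at chr8:111033710-111033757 (plus) for *Aars*, chr6:55037951-55037998 (plus) for *Gars*, chr13:49682117-49682164 (plus) for *Iars*, chr15:11399646-11399693 (minus) for *Tars* and chr4:129189886-129189933 (plus) for *Yars*, and that of *Pycr1* at chr11:120643824-120643871 (minus). The capitals begin 193 bases before the start in *Chac1*, 112 in *Herpud1* and *Aars*, 110 in *Nupr1* and 103 in *Pycr1*. They begin at most 30 bases before the start in *Gars*, *Asns*, *Tars* and *Slc1a4*, and after it in *Trib3*, *Iars* and *Yars*. *Aars* held a further match, not shown, after its start. A match is a run of letters and not a measured binding site. No match was in the windows of *Atf4*, *Ddit3*, *Mthfd2* and *Sesn2*, which says only that these letters are not there.

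Calls in the endoplasmic reticulum list were led by a gene of protein degradation. Of 34 filtered genes for folding, unfolded protein sensors and degradation, 6 rose (17.6%, against 4.87% of all genes), 1 fell (2.94%, against 4.91%) and 27 did not pass, with a median of 0.47. *Herpud1*, a membrane protein of the degradation complex whose promoter match is shown above, had 18.2, 22.4 and 16.8 CPM in WT and 229, 95.9 and 83.3 CPM in homo (2.83 ± 0.31, FDR 2.01e-06). *Dnajb9* (1.38), *Hsp90b1* (0.88), *Derl1* (0.82), *Selk* (0.77) and *Fkbp2* (0.71) rose as well, with their libraries apart. *Derl1* had 25.0 CPM in homo 1 and 13.9 and 12.8 CPM in homo 2 and 3. Without homo 1 its log2 fold change was 0.45 and the call was lost (FDR 0.0814). *Hspa5*, the main chaperone BiP, had 64.3, 73.7 and 87.6 CPM in WT and 422, 155 and 134 CPM in homo: each homo pool was higher, but homo 1 lay far above the others, and the log2 fold change of 1.66 ± 0.59 did not pass (FDR 0.0970). *Xbp1* (0.54, FDR 0.211), *Ern1* (-0.16, FDR 0.863) and *Atf6* (0.61, FDR 0.124), the sensors and factors of the other arms, did not pass, and *Creb3l2* fell by 0.79 (FDR 0.0337). Homo 1 was the high library for this list, which summed to 803 to 923 CPM in WT, 1873 CPM in homo 1 and 1078 and 947 CPM in homo 2 and 3. Without homo 1, 8 genes were higher and 4 lower and the median was 0.13, and without WT 1, WT 2 or WT 3 in turn 3 were higher and none lower. With library size alone 15 were higher.

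Targets of p53, the transcription factor that responds to DNA damage and other stress, rose more often than they fell. Of 33 filtered genes, 13 rose (39.4%, against 4.87% of all genes), 1 fell and 19 did not pass, with a median log2 fold change of 0.86. With 1 library left out at a time 10 to 13 were higher and 1 or 2 lower, and the median ran from 0.56 without homo 2 to 0.90 without WT 3. *Cdkn1a*, the cell cycle inhibitor p21, had 1.36, 1.25 and 2.38 CPM in WT and 35.3, 26.9 and 26.2 CPM in homo (4.14 ± 0.64, FDR 0.000663). *Phlda3*, an inhibitor of AKT, had 1.19, 0.540 and 0.806 CPM in WT and 18.2, 15.2 and 16.9 CPM in homo (4.32 ± 0.39, FDR 1.19e-07). *Ccng1*, cyclin G1, had 35.0, 40.0 and 23.8 CPM in WT and 101, 204 and 143 CPM in homo (2.18 ± 0.28, FDR 1.86e-05). The homo pools lay above WT for each. *Eda2r*, a receptor of the TNF family, had 0, 5 and 0 counts in WT and 60, 140 and 84 counts in homo (FDR 0.000289). *Mdm2*, the ligase that removes p53, rose by 1.05 ± 0.22 (FDR 0.00246), and *Gadd45a* (2.30), *Plk3* (2.34), *Trp53inp1* (1.36), *Aen* (1.05), *Xpc* (1.03) and *Sesn2*, which is also an ATF4 target, rose too. *Trp53* itself had 12.3 to 16.9 CPM in WT and 9.49 to 23.8 CPM in homo (0.03 ± 0.27, FDR 0.971). *Sesn1*, a further sestrin, had 11.5 to 16.2 CPM in WT and 4.15 to 8.85 CPM in homo and fell by 1.18 ± 0.27 (FDR 0.00683).

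Of 13 filtered members of the Bcl2 family, 3 rose (23.1%, against 4.87% of all genes) and none fell, and none was lower at an unadjusted p under 0.05 or with DESeq2. In the fit of the 6 libraries alone 1 was higher. *Bax*, which forms pores in the mitochondrial membrane and is also on the p53 list, had 14.8, 15.6 and 17.1 CPM in WT and 36.6, 27.6 and 31.8 CPM in homo (1.02 ± 0.19, FDR 0.00109). *Bbc3* (PUMA), a trigger of these pores that is also on the p53 list, had 0.245 to 0.540 CPM in WT and 1.83 to 4.60 CPM in homo (3.02 ± 0.49, FDR 0.000245). *Bak1* had 0.383 to 0.561 CPM in WT, 0.330 CPM in homo 1 and 2.86 and 2.13 CPM in homo 2 and 3, so its groups overlapped (1.95 ± 0.54, FDR 0.0226). The survival genes *Bcl2*, *Bcl2l1*, *Bcl2l2* and *Mcl1* did not pass, with log2 fold changes of -0.52 to 0.27.

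**Figure D3:**
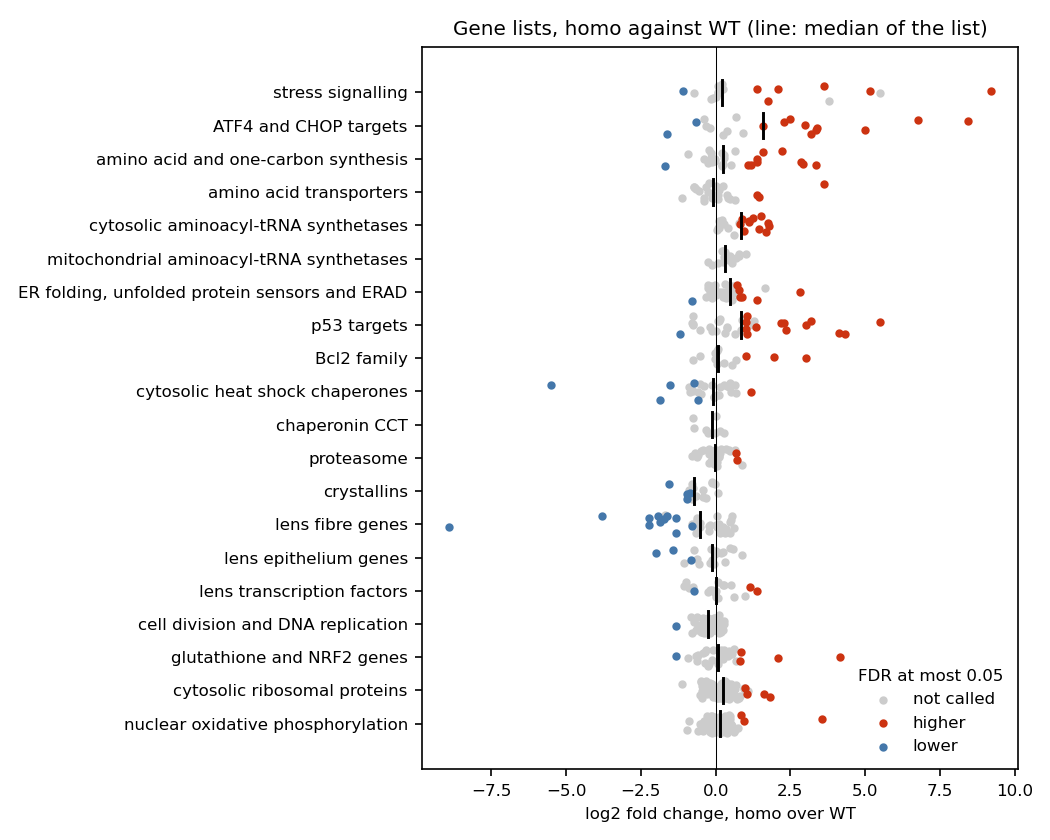
Log2 fold change of homo over WT (horizontal axis) for each filtered gene of 20 lists (rows), with 1 point per gene, red where it was called higher, blue where called lower and grey where not called at FDR 0.05, and a black line at the median of the list. The medians are 1.57 for ATF4 and CHOP targets, 0.86 for p53 targets and 0.85 for cytosolic synthetases, and -0.71 for crystallins and -0.53 for lens fibre genes.

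Of 26 filtered cytosolic heat shock chaperones, 1 rose (3.85%, near the 4.87% of all genes), 5 fell (19.2%, against 4.91% of all genes) and 20 did not pass, with a median of -0.10. *Hspb1*, a small heat shock protein related to the α-crystallins, had 13.4, 19.3 and 5.33 CPM in WT and 0.132, 0.220 and 0.532 CPM in homo (-5.51 ± 0.53, FDR 1.07e-06), a 45.6-fold difference between groups that do not overlap. *Dnajb1*, a cochaperone of HSP70, had 143, 146 and 99.5 CPM in WT and 59.8, 24.9 and 22.3 CPM in homo (-1.86 ± 0.31, FDR 0.000346). *Hspb6*, another small heat shock protein, fell by 1.52 ± 0.25 (FDR 0.000245). *Hsf4*, the heat shock factor of the lens that is required for fibre maturation, had 62.9, 69.4 and 43.1 CPM in WT and 35.7, 30.3 and 39.3 CPM in homo (-0.74 ± 0.22, FDR 0.0333), and the libraries were apart by a narrow margin. *Hspa9*, the mitochondrial HSP70, was the member that rose (1.19 ± 0.28, FDR 0.00732). The inducible *Hspa1a* was below the filter, at 0.0852 to 0.135 CPM in WT and 0.0943 to 0.198 CPM in homo. Without homo 1, 4 chaperones were higher and 9 lower and the median was -0.30, and without WT 1, WT 2 or homo 2 in turn 3 were lower. Scaling by library size alone gave 5 higher and 3 lower.

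Of the 8 subunits of the chaperonin CCT, which folds actin and tubulin, none was called with edgeR's quasi-likelihood test or with DESeq2, and 2 were lower at an unadjusted p under 0.05. Of 31 proteasome subunits 2 rose (*Psma4* and *Psmb3*), a share of 6.45% near the 4.87% of all genes. No proteasome gene was called without WT 1, WT 2 or WT 3 in turn or in the fits of 9 or 6 libraries, and 4 were higher without homo 3. Both complexes split the homo pools. The CCT genes summed to 784 to 989 CPM in WT, to 1218 CPM in homo 1 and to 569 and 431 CPM in homo 2 and 3. The proteasome genes summed to 1525 to 1842 CPM in WT, to 2558 CPM in homo 1 and to 1367 and 1085 CPM in homo 2 and 3. Homo 1 was thus above every WT library and homo 2 and 3 below every WT library for both, and without homo 1, 4 CCT and 15 proteasome genes were lower. The glycolysis genes (664 to 686 CPM in WT against 986, 483 and 517 CPM in homo 1 to 3) and the cholesterol synthesis genes (184 to 194 CPM against 276, 156 and 144 CPM) divided in the same way.

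**Figure D4:**
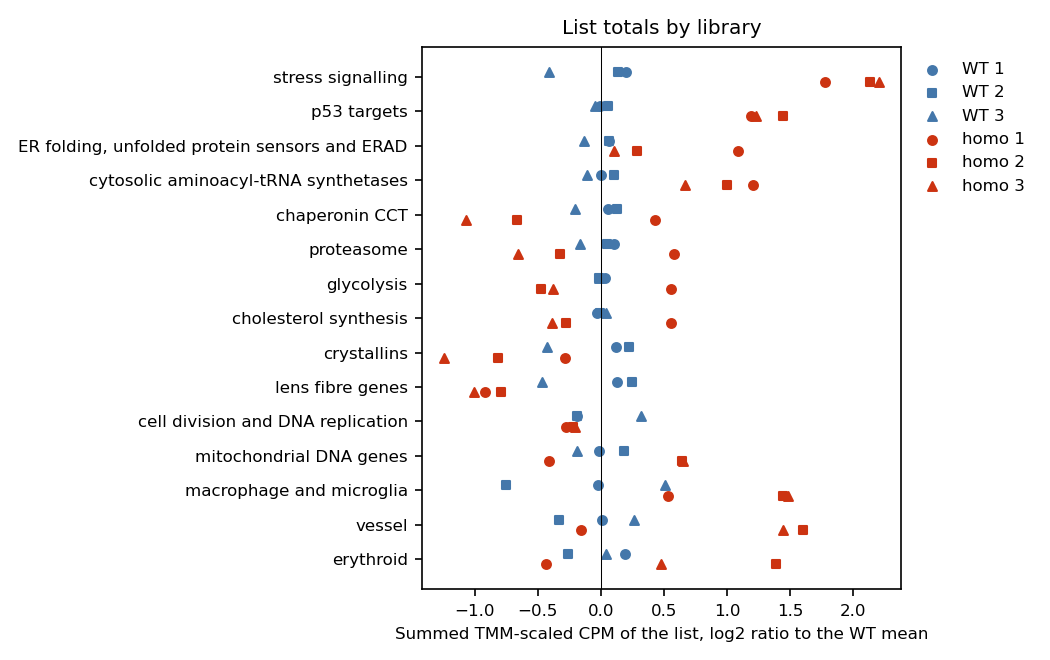
Summed TMM-scaled CPM of 15 gene lists (rows) in each WT and homo library, as the log2 ratio to the mean of the 3 WT libraries (horizontal axis), with 1 point per library. Homo 1 lies on the other side of WT from homo 2 and 3 for the chaperonin, the proteasome, glycolysis, cholesterol synthesis, mitochondrial DNA and erythroid genes. All 3 homo points lie above WT for stress signalling, p53 targets and cytosolic synthetases and, by a narrow margin, for the endoplasmic reticulum and macrophage lists. They lie below WT for lens fibre genes and, by a narrow margin, for cell division.

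Of 35 filtered lens fibre genes, 11 fell (31.4%, against 4.91% of all genes), none rose and 24 did not pass, with a median log2 fold change of -0.53. DESeq2 gave 15 lower and none higher, and 2 were higher at an unadjusted p under 0.05. The group listed as organelle loss and RNA granules also holds genes with high or specific lens expression. In that group 7 of 13 fell, against 2 of 11 for the filament and membrane skeleton and 2 of 11 for channels and membrane proteins. A difference between these groups was not tested. *Tdrd7*, an RNA granule protein needed for lens clarity, had 296, 313 and 169 CPM in WT and 86.0, 95.1 and 72.0 CPM in homo (-1.62 ± 0.25, FDR 0.000157). *Dnase2b*, the nuclease that degrades the DNA of fibre nuclei, had 58.1, 69.3 and 46.4 CPM in WT and 34.9, 21.8 and 13.2 CPM in homo (-1.31 ± 0.29, FDR 0.00487). *Alox15*, a lipoxygenase, had 64, 99 and 47 counts in WT and no count in any homo library (FDR 4.10e-08), at least 28.1-fold lower with a floor of 3 counts per homo library. *Birc7* (-1.94), *Lgsn* (-2.23), *Grifin* (-1.32) and *Lenep* (-1.87), genes of this group with high or specific lens expression, fell as well.

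*Bfsp1*, which encodes the filament protein filensin, had 1033, 1154 and 538 CPM in WT and 106, 273 and 201 CPM in homo (-2.23 ± 0.35, FDR 0.000158). *Bfsp2*, its partner CP49, had 2839, 2978 and 1991 CPM in WT and 1177, 586 and 640 CPM in homo, also with the libraries apart, but did not pass (-1.70 ± 0.67, FDR 0.131). *Tmod1*, which caps actin filaments, fell by 1.72 ± 0.36 (FDR 0.00364). *Lctl*, a membrane protein related to klotho, had 58.2, 66.1 and 38.78 CPM in WT and 4.21, 4.09 and 3.23 CPM in homo (-3.82 ± 0.29, FDR 9.40e-09). Among the channels, *Mip*, the water channel of the fibre membrane, had 190 to 314 CPM in WT and 171 to 193 CPM in homo (-0.53 ± 0.22, FDR 0.132) and *Gja3* (connexin 46) had 185 CPM in homo 1 and 74.5 and 51.0 CPM in homo 2 and 3, against 129 to 174 CPM in WT (FDR 0.351). The row named *Lim2*, a further fibre membrane protein, held no count in any library; the identifier that GENCODE vM21 calls *Lim2* is listed as Gm42419, which lies outside the list and had 10.9, 10.7 and 6.87 CPM in WT and 2.97, 2.89 and 3.73 CPM in homo (-1.57, FDR 0.000153), named here after its values were seen. Scaling by library size alone, which put the median of all genes at 0.413, gave 6 higher and 8 lower fibre genes, and without homo 1 there were 3 higher and 14 lower.

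**Figure D5:**
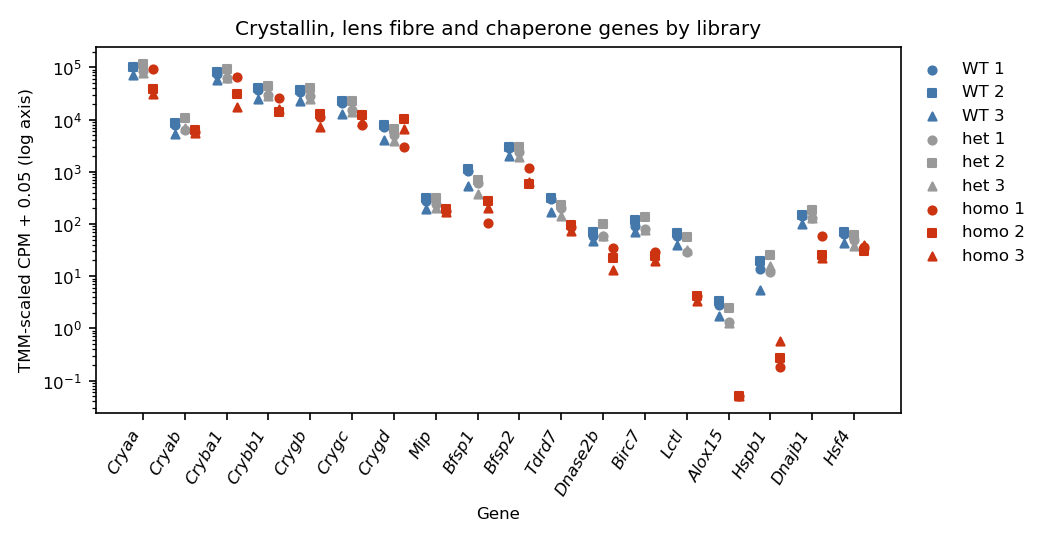
Levels of 18 crystallin, lens fibre and chaperone genes (horizontal axis) in TMM-scaled CPM plus 0.05 (log axis) in each WT, het and homo library, with 1 point per library and the marker shape giving the replicate number. Homo points lie below WT points for *Crygb*, *Bfsp1*, *Tdrd7*, *Lctl* and *Hspb1*, all 3 homo points of *Alox15* are at 0 counts, and homo 1 lies apart from homo 2 and 3 for *Cryaa* and *Cryba1*.

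Of 21 transcription factors that define the lens, 2 rose (9.52%, against 4.87% of all genes), 1 fell (4.76%, near the 4.91% of all genes) and 18 did not pass, with a median of 0.004. *Pax6*, the factor that heads eye development, had 50.0 to 69.1 CPM in WT and 51.0 to 60.7 CPM in homo (0.01 ± 0.19, FDR 0.992). *Prox1* (-0.13 ± 0.24) and *Maf* (-0.21 ± 0.29), which drive fibre differentiation, and *Foxe3* (-1.07 ± 0.44, FDR 0.135), a factor of the epithelium, did not pass. *Gata3* had 2.38 to 4.18 CPM in WT and 8.08 to 9.73 CPM in homo and rose by 1.39 ± 0.26 (FDR 0.00110), *Pitx3* rose by 1.16 ± 0.34 (FDR 0.0297) with its libraries overlapping, and *Hsf4* is the factor that fell. With library size alone 6 factors were higher and none lower, and without WT 1, homo 2 or homo 3 in turn 1 was higher. Without homo 1, 3 were higher and 3 lower with a median of 0.19, and without WT 3, 1 was higher and 2 lower. These levels, with those of the crystallins and *Mip*, also check the labelled tissue, since all 6 libraries expressed them.

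Of 19 genes of the lens epithelium, 3 fell (15.8%, against 4.91% of all genes) and none rose, while 3 were higher at an unadjusted p under 0.05. DESeq2 gave 1 higher and 4 lower, the likelihood-ratio test 2 higher and 6 lower, the replicate block 1 higher and 4 lower, and the fit without homo 1 gave 2 higher and 4 lower. *Gja1* (connexin 43) had 31.1, 18.03 and 34.0 CPM in WT and 10.2, 6.54 and 3.88 CPM in homo (-2.003 ± 0.28, FDR 4.77e-05). *Clu*, which encodes the secreted chaperone clusterin, had 207, 214 and 134 CPM in WT and 82.0, 75.0 and 48.8 CPM in homo (-1.43 ± 0.26, FDR 0.000758). *Ccnd1*, cyclin D1, fell by 0.81 ± 0.26 (FDR 0.0485). With library size alone 4 epithelial genes were higher and 2 lower. In the signalling pathways that govern fibre differentiation, *Fgfr3* had 53.3, 55.0 and 35.8 CPM in WT and 10.5, 23.6 and 25.8 CPM in homo (-1.27 ± 0.30, FDR 0.00825). At a share of 6.25%, near the 4.91% of all genes called lower, it was the only 1 of 16 filtered FGF receptors and feedback targets to be called. Without WT 3, 2 of them were lower, as with DESeq2, and with the 6 libraries alone none was called. Of 15 Notch genes, *Notch2* fell by 1.03 ± 0.31 (FDR 0.0362) and the target *Hey1* rose by 0.88 ± 0.25 (FDR 0.0263). These shares, 6.67% lower and 6.67% higher, are near the 4.91% and 4.87% of all genes. No Notch gene was called without WT 1, WT 2 or WT 3 in turn or with the 6 libraries alone, and the call of *Notch2* was also lost without homo 1 or homo 2.

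Of 51 filtered genes of cell division and DNA replication, *Gins2* fell (-1.31 ± 0.36, FDR 0.0214) and none rose, with a median of -0.24. This is 1.96% lower, against 4.91% of all genes, and none was higher at an unadjusted p under 0.05. The median was -0.03 without WT 3 and -0.15 without homo 2. Without homo 1, 6 of these genes were lower, and against het 6 were lower in homo. None was called without WT 1, homo 2 or homo 3 in turn, in the fits of 9 or 6 libraries, or with library size alone. *Mki67*, a marker of cycling cells, had 17.8, 18.3 and 27.5 CPM in WT and 9.38, 20.2 and 21.7 CPM in homo (-0.32 ± 0.31, FDR 0.597). Of 29 filtered cluster histones, 4 rose (13.8%, against 4.87% of all genes) and 1 fell (3.45%, against 4.91%), with a median of 0.22. Without homo 1, 6 were higher and the median was 0.75, and it was 0.60 without WT 2, 0.41 without WT 3 and 0.07 without homo 3. The number higher was 1 without WT 2, WT 3 or homo 2 in turn and 2 without WT 1. *Hist1h1c*, a linker histone, had 32.1, 37.0 and 25.9 CPM in WT and 127, 70.9 and 68.9 CPM in homo (1.49 ± 0.34, FDR 0.00617), *Hist2h4* (1.72), *Hist1h2bc* (0.76) and *Hist3h2a* (0.73) rose, and *Hist3h2ba* fell by 0.79. Histone genes are near-identical copies whose messages mostly lack poly-A tails, so their counts are uncertain in poly-A libraries.

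Of 31 filtered glutathione and NRF2 genes, 4 rose (12.9%, against 4.87% of all genes) and 1 fell (3.23%, against 4.91%). *Osgin1*, a stress-induced growth inhibitor, had 0.0426 to 0.236 CPM in WT and 1.37 to 3.63 CPM in homo (4.17 ± 0.71, FDR 0.000404). *Srxn1*, which repairs oxidised peroxiredoxins, rose by 2.10 ± 0.32 (FDR 0.000108), *Cat* by 0.85 and *Txnrd1* by 0.80, while *Nfe2l2*, the NRF2 gene itself, did not pass (0.18 ± 0.22, FDR 0.672). *Gpx1*, glutathione peroxidase 1, had 316, 301 and 216 CPM in WT, 219 CPM in homo 1 and 69.3 and 47.1 CPM in homo 2 and 3 (-1.31 ± 0.37, FDR 0.0265). Of 37 autophagy and lysosome genes, 3 rose (8.11%), with *Sqstm1* at their head, and 4 fell (10.8%, against 4.91% of all genes), among them the lysosomal channel *Mcoln1* (-1.11 ± 0.20, FDR 0.000788), the protease *Ctsa* (-1.10 ± 0.22, FDR 0.00186) and the autophagy receptor *Optn* (-0.95 ± 0.26, FDR 0.0202). Of 81 filtered genes of nuclear oxidative phosphorylation 3 rose (3.70%, against 4.87% of all genes), and *Cox6a2*, a subunit known from muscle, had 1.11, 1.35 and 1.47 CPM in WT and 7.58, 21.5 and 17.8 CPM in homo (3.56 ± 0.36, FDR 7.64e-07). Of 81 filtered ribosomal protein genes 4 rose (4.94%, near that background), with *Rps27l*, a p53 target by background knowledge, from 17.3 to 24.1 CPM in WT to 44.0, 91.0 and 61.9 CPM in homo (1.62 ± 0.24, FDR 9.11e-05). Cholesterol synthesis had 1 called gene of 23 (4.35%), *Tm7sf2* (-2.09 ± 0.39, FDR 0.00101), and *Srebf2*, its regulator, did not pass (FDR 0.255). None of 18 immediate-early genes was called with edgeR's quasi-likelihood test or with DESeq2, 0 had an unadjusted p under 0.05, and the likelihood-ratio test called 1 higher. These counts moved with single libraries. Without homo 1, where 9.19% of all genes were higher and 12.3% lower, 7 glutathione and NRF2 genes were higher and 10 lower, 24 ribosomal protein genes were higher and 7 lower, 17 oxidative phosphorylation genes were higher and 15 lower, 4 autophagy and lysosome genes were higher and 12 lower, and 7 cholesterol synthesis genes were lower, while without WT 1, WT 2, homo 2 or homo 3 in turn 2 NRF2 genes were higher. With 1 library left out at a time 1 (without WT 1 or WT 3) to 4 autophagy and lysosome genes were higher and 2 to 12 lower. With library size alone 35 ribosomal protein genes were higher.

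Markers of cells other than lens were uneven between pools. The 16 vessel markers summed to 85.4, 67.4 and 102 CPM in WT, to 76.0 CPM in homo 1 and to 258 and 231 CPM in homo 2 and 3. The 17 macrophage and microglia markers summed to 22.5, 13.6 and 32.5 CPM in WT and to 33.1, 62.3 and 63.8 CPM in homo. Homo 2 and 3 were thus the high libraries for both, and homo 1 was within the WT range for vessels and just above it for macrophages. Of the vessel markers, *Rgs5*, *Cdh5* and *Tie1* rose, the first 2 with overlapping libraries, and of 16 filtered macrophage markers *C1qa* and *Aif1* rose. These are 18.8% and 12.5%, against 4.87% of all genes. Without homo 1, where 9.19% of all genes were higher, 13 vessel and 9 macrophage markers were higher. None was called with edgeR without WT 1, WT 2, homo 2 or homo 3 in turn, and without WT 3 there were 1 and 3. Defining markers such as *Kdr* (7.29 to 15.8 CPM in WT, 8.63 to 23.2 CPM in homo) and *Mrc1* (1.89 to 2.60 CPM in WT, 2.97 to 10.3 CPM in homo) were detected in every library, and the part of such cells in the changes above was not tested.

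Of 15 filtered markers of pigmented and ciliary tissue, *Pmel* (-2.02), *Mlana* (-2.17) and *Mitf* (-0.99) fell, while 4.91% of all genes were lower. These calls were lost with library size alone. Of 17 fits, the main fit included, *Pmel* passed in 16, *Mitf* in 15 and *Mlana* in 10. Without homo 1, 1 of these markers was higher and 7 lower. *Sfrp1* had 159 to 294 CPM in WT and 224 to 485 CPM in homo (FDR 0.195). Of 7 filtered erythroid markers *Ermap* fell, from 6.99, 10.1 and 4.63 CPM in WT to 0.639, 0.346 and 0.304 CPM in homo (-4.002 ± 0.33, FDR 3.50e-08), while the adult globin gene *Hbb-bs* had 23.0 to 35.8 CPM in WT and 24.1 to 85.3 CPM in homo (FDR 0.611). No photoreceptor, inner retina, cornea or muscle marker was called with edgeR's quasi-likelihood test, while 0, 2, 1 and 3 of them were lower at an unadjusted p under 0.05 and DESeq2 called 2 inner retina markers lower. WT 3 was the high library for retina and muscle: the photoreceptor markers summed to 74.5 CPM there against 17.8 to 44.7 CPM in the other 5 WT and homo libraries, and the muscle markers to 28.8 CPM against 1.58 to 3.81 CPM. Their part in the results was not tested.

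The genes with the largest falls outside the lists were the following. *Zfyve28*, a protein of endosomes, had 11.7, 13.1 and 6.69 CPM in WT and 0.286, 0.189 and 0.266 CPM in homo (-5.36 ± 0.31, FDR 1.08e-10). *Stx11*, a syntaxin, had 18.9, 22.4 and 13.8 CPM in WT and 0.639, 0.409 and 0.304 CPM in homo (-5.28 ± 0.30, FDR 1.08e-10). *Clic5*, an intracellular chloride channel protein, had 6.22, 8.68 and 6.48 CPM in WT and 0.154, 0.157 and 0.152 CPM in homo (-5.48 ± 0.36, FDR 8.95e-10). *Ceacam10* (-5.44), *Snx22* (-5.33), *Tcp11* (-4.17), *1190002N15Rik* (-3.87), *Tecrl* (-3.58), *Rnf180* (-3.53) and *Faim2* (-3.34) complete the 10 largest falls with separated libraries and at least 5 CPM in the higher group. The largest rises by the same rule included *Gm14963* (6.08), *Ccl7* (5.74), *1700086L19Rik* (5.68), *Rny1* (3.96), *Angptl8* (2.88), *Timeless* (2.65), *Nfil3* (2.63), *Sh3bp1* (2.45) and *mt-Tq* (2.35). *Gm14963*, a gene of unnamed function, had 0.213, 0.304 and 0.140 CPM in WT and 17.5, 16.3 and 11.8 CPM in homo (FDR 7.45e-09). *Ccl7*, a chemokine that attracts monocytes, had 0.0675 to 0.315 CPM in WT and 11.4, 9.49 and 5.32 CPM in homo (FDR 0.00894). *Angptl8*, a secreted regulator of lipid metabolism, had 0.911 to 1.70 CPM in WT and 7.99 to 9.59 CPM in homo (FDR 1.21e-05). *Rny1* and *mt-Tq* are small RNAs without poly-A tails, and their counts in poly-A libraries are uncertain.

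The knock-in locus lies among genes of the allele's own chromosome segment, so the neighbourhood was examined. Within 5 Mb of *Cryaa* 194 genes passed the filter, of which 9 were higher and 7 lower (8.25%), against 11.5% of the 655 filtered genes of chromosome 17 and 9.79% of all genes. *Cdkn1a* and its neighbour *Trp53cor1* (4.72 ± 0.53, FDR 2.84e-06) are among the 9, and *Tcp11* (FDR 2.13e-09), *Sapcd1* (-2.08 ± 0.24), *H2-K2* (-3.01 ± 0.41) and *Gm4152* (-3.69 ± 0.52) among the 7.

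The homo lenses were also compared with het lenses, which carry 1 copy of the allele and are the group nearest to them. In this comparison 654 genes were higher and 506 lower in homo, 8.32% of the genes tested, with 4.69% higher and 3.63% lower. The comparison uses the same homo libraries as that with WT, so the values are set side by side and are not independent. Of 19 ATF4 and CHOP targets 12 were higher and 1 lower than in het, of 33 p53 targets 15 were higher and 1 lower, and of 20 cytosolic synthetases 7 were higher. Of 35 fibre genes 10 were lower and 3 higher, and of 16 crystallins 2 were lower. *Ddit3* had 3.02, 3.00 and 3.19 CPM in het, and homo exceeded it by 5.38 ± 0.31 on the log2 scale (FDR 1.90e-10). *Atf4* had 26.1, 35.5 and 29.7 CPM in het (1.58 ± 0.21, FDR 3.28e-05), and *Hspb1* had 11.8, 24.9 and 15.3 CPM in het (-5.96 ± 0.54, FDR 5.71e-07). The het pools overlapped WT for *Atf4* and *Hspb1* and lay just below WT for *Ddit3*, while the homo pools lay outside the range of both groups for all 3 genes.

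Some genes had het levels between both other groups, and such genes were not counted. Among those that rose, *Tars* had 6.75 to 9.57 CPM in WT, 11.6 to 13.0 CPM in het and 16.8 to 44.2 CPM in homo. Every het library also lay between both groups for *Hspa9* and *Hist1h1c*, which rose, and for *Mcoln1* and *Ctsa*, which fell. *Clic5* had 1.58, 3.51 and 1.496 CPM in het, below every WT and above every homo library, and the log2 difference of homo from het was -3.77 ± 0.36 (FDR 4.05e-07). *Rsad2*, an antiviral protein induced by interferon, had 4.26 to 6.21 CPM in WT, 1.17 to 3.73 CPM in het and 0.352 to 0.723 CPM in homo (homo minus het -1.94 ± 0.36, FDR 0.00130). *Fgfr3* had 26.7, 30.0 and 16.0 CPM in het, which overlapped homo, and the difference of -0.28 ± 0.30 did not pass (FDR 0.610). *Creb3l2* (FDR 0.762) and *Ndrg1* (FDR 0.542), which were called against WT, did not pass against het.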

How the data were processed

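Per the labels, pooled lens RNA was made into poly-A libraries and sequenced with single reads. The authors processed the runs with CASAVA 1.8, aligned them with STAR 2.0.4b to GRCm38 and counted reads per gene with featureCounts 1.4.5, and the deposited counts are raw. The strand setting is not given in the sources used here. Deposited CPM, RPKM and log2 CPM tables were not used. Of 40800 gene identifiers on 41422 lines, whose repeats were identical, 13938 passed filterByExpr. edgeR 4.0.16 (R 4.3.3) fitted TMM-scaled counts of 18 libraries in 6 groups with robust quasi-likelihood, and p-values were adjusted by Benjamini-Hochberg over all filtered genes. The test was run on simulated data with known changes, and the outcome is not reported here. Each gene was drawn by itself around pooled means, so that run cannot show how a library like homo 1 affects the calls. Groups came from the labels. Counts per library limit the precision of low genes. No counts of other series' samples were in the table.

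The members and lists were chosen with earlier results of these data known. Named genes were the crystallins, up to 5 called genes per list by fold change with separated libraries, defining members, and the 10 largest rises and falls outside the lists with at least 5 CPM in the higher group. Other members of lists were named after their values were seen. Alternatives were other scalings, filters, tests (DESeq2 1.42.0), sets of libraries, single libraries left out and a replicate block. Gene positions are from GENCODE vM21. Some genes that meet the rule are not reported here.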

Additional observations from a re-analysis of the deposited data

How the results depend on the processing

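Of the 1364 genes called between homo and WT (679 higher, 685 lower), the count was within 1.5 times under DESeq2's size factors, its own test, other filters, scaling without crystallins and Gm42418, and the 9 libraries of the line. Scaling by library size alone gave 2138 calls (1884 higher, 254 lower, 88.1% higher) with an all-gene median of 0.413 on the log2 scale. The likelihood-ratio test gave 2887 (1273 higher, 1614 lower) and the 6 libraries alone 478 (212 higher, 266 lower). Leaving out 1 library at a time gave 731 (without WT 1) to 3092 (without homo 1) calls, 329 to 1323 higher and 402 to 1769 lower. Of 1160 calls between homo and het (654 higher, 506 lower), library size alone left 203 lower, the likelihood-ratio test gave 3052 (1392 higher, 1660 lower) and the 9 libraries of the line 677 (389 higher, 288 lower). Single libraries left out gave 453 (without homo 2) to 4132 (without homo 1) calls, 215 to 1931 higher and 235 to 2201 lower. The crystallin share differed by -16.8 percentage points without homo 1 and by 1.88 without homo 3, and the Gm42418 share by 7.55 and -12.5. With the replicate number as a replicate block 1440 genes were called against WT and 1280 against het. The numbers share no stated source, and the deviations of same-numbered WT and homo libraries correlated by 0.044, 0.162 and 0.153, so the samples were not treated as paired. Of 151 named genes called against WT, 77 kept the call under every alternative run, 63 lost it with the 6 libraries alone, 48 without WT 1, 26 with library size alone and 2 with the block. The log2 fold change of *Farsb*, not called with all libraries, ran from -0.60 (without homo 1, called) to 0.62 (without homo 3) with 1 library left out at a time. Unless a construction shows it (fewer libraries, another scaling), the cause was not tested.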

Other observations

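Of 23 glycolysis genes, 3 rose (13.0%) and 2 fell (8.70%) in homo against WT, with a median log2 fold change of 0.29. Of all genes 4.87% were higher and 4.91% lower. *Pgk1*, which makes ATP in glycolysis, had 3.71, 3.31 and 3.36 CPM in WT and 7.95, 5.82 and 4.72 CPM in homo (0.84 ± 0.25, FDR 0.0380), *Slc16a3* (1.09), a lactate exporter, and *Pdk1* (0.91), which holds pyruvate back from mitochondria, rose too, while *Aldoc* (-0.96), an aldolase, and *Slc16a1* (-1.12), a lactate carrier, fell. The calls moved with single libraries: 1 gene was higher without WT 1 or WT 2, 5 were lower without homo 1, where the median was -0.03, and none was called with the 6 libraries alone. Of 20 genes of the lens capsule, a thick basement membrane, *Lama4* (1.38 ± 0.41, FDR 0.0342), a laminin chain, rose (1 of 20, near the 4.87% of all genes) and none fell, while 1 was lower at an unadjusted p under 0.05. The call of *Lama4* was lost without each library but homo 1. Of 24 filtered genes of fibrosis and epithelial-mesenchymal transition, *Ctgf* (-1.53 ± 0.46, FDR 0.0364), a secreted matrix protein, and *Col1a2* (-1.03 ± 0.26, FDR 0.0129), a collagen chain, fell (8.33%) and none rose, while 4 were higher at an unadjusted p under 0.05. Without homo 1 there were 5 higher and 3 lower, and without WT 3 none was called.

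Of 22 filtered interferon-induced genes, 1 rose (4.55%, near the 4.87% of all genes) and 1 fell (4.55%, near the 4.91% of all genes), with a median of 0.68. The median ran from 0.32 without WT 2 to 1.01 without WT 3. *Bst2*, a membrane protein that tethers viruses, had 0.213, 0.372 and 0.596 CPM in WT and 0.352, 1.29 and 2.93 CPM in homo (1.90 ± 0.57, FDR 0.0369), and *Rsad2* fell by 3.16 ± 0.36 (FDR 2.79e-06) from WT. Without homo 1, 4 were higher and 1 lower, and the call of *Bst2* was lost without WT 1, WT 2, homo 2 or homo 3 in turn. Of 8 filtered protein genes of mitochondrial DNA, *mt-Nd2* rose (0.83 ± 0.25, FDR 0.0393), a share of 12.5% against 4.87% of all genes. Without homo 1, where 9.19% of all genes were higher and 12.3% lower, 4 of the 8 were higher and 1 lower. Without each other library in turn none was called. These genes summed to 3263 to 4222 CPM in WT, to 2803 CPM in homo 1 and to 5809 and 5849 CPM in homo 2 and 3, so homo 1 lay below WT and the other homo pools above it. What these differences between pools reflect was not tested.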
